A study of Mus musculus with 9 samples.

Results

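Muscle of mice that lacked full-length dystrophin was compared with muscle of mice that carried it, whether from the mouse gene, the human gene or both. The lacking class held 3 of the 9 mice, 2 of genotype mdx and 1 of genotype mdx x utrn-/-, and the carrying class held the other 6. The carrying mice were 2 wild-type, 1 hDMD, 2 hDMD x mdx and 1 hDMD x mdx x utrn-/-. Classes were assigned from the genotype in each title, and no measured value entered the assignment. Genes whose values did not overlap between the classes are described in both directions.

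Each mouse gave gastrocnemius RNA to 1 Affymetrix U74Av2 array. An mdx mouse has a mutation in its own Dmd gene, a utrn-/- mouse has no utrophin, and an hDMD mouse bears the complete human dystrophin gene as a transgene. No genotype was shared by all 6 carrying mice: 3 had an intact mouse Dmd gene (wild-type and hDMD), and 3 had human dystrophin alone on an mdx background. The mdx mice were 15 and 13 weeks old and the mdx x utrn-/- mouse 5 weeks. The wild-type mice were 7 weeks old, the hDMD mouse 11, the hDMD x mdx mice 24 and 10, and the hDMD x mdx x utrn-/- mouse 9. Only wild-type 1 was female, and a strain (C57Bl/DBA2/129OLA-Ev) is labelled only for the wild-type mice. The mutation of mdx spares the shorter products of Dmd. Each array is 1 mouse, so p-values measure the spread between these mice, whose age, sex and genotype also differ within a class.

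Dystrophin ties actin under the fibre membrane to a glycoprotein complex that binds the matrix outside. Without it fibres tear during contraction, die and are replaced: satellite cells divide and fuse, and the new fibres pass through an embryonic programme of myosins, troponins and acetylcholine receptors. Utrophin is a related protein that takes over part of this role, so mice without both are more severely affected. Macrophages enter to clear dead fibres, and fibroblasts lay down matrix.

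Levels are quantile normalised intensities on a log2(value + 16) scale with a floor of 4, where a value of 0 or below lies, and a difference is lacking minus carrying on that scale. This scale understates changes of dim genes. The muscle genes Acta1 (11.70 to 11.86), the brighter Myh4 probe set (11.28 to 11.70) and the brighter Ckm probe set (9.86 to 10.83) were high on every array. The Dmd probe set lay between 4 and 4.95 and the Utrn probe sets between 4.15 and 6.15, with differences of -0.03 for Dmd and of -0.19 and -0.03 for Utrn, so neither gene checked the labels. By the hybridisation spike-in controls, added in fixed amounts, 3 arrays were bright (wild-type 1, hDMD x mdx 1 and mdx 2) and 6 dim, with medians 6.18 times apart. Actin 3' to 5' signal ratios, which rise as RNA degrades, were 1.20 to 1.87 on the bright and 0.669 to 0.908 on the dim arrays. Both classes hold bright and dim arrays, and a fit with bright or dim as a block called 11 probe sets higher and 0 lower, against 9 and 0 without it.

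Of 7453 probe sets kept after a filter on dim ones, 114 (1.53%) lay higher on all 3 lacking arrays than on any carrying array. Another 106 (1.42%) lay lower on all 3. In limma, with Benjamini-Hochberg adjustment at 0.05, 9 probe sets were called higher (0.121%) and 0 lower (0%), and at an unadjusted p under 0.05 the counts were 243 (3.26%) and 173 (2.32%). Represented by 1 probe set each, 87 of 5666 genes did not overlap and were higher (1.54%), 91 did not overlap and were lower (1.61%), 6 were called higher (0.106%) and 0 lower (0%). The non-overlapping higher genes had a median difference of 0.81, and 27 differed by over 1. Lower genes had a median of -0.58, and 9 differed by over 1 in size. The distance between the nearest arrays of the 2 classes had a median of 0.14 for higher and 0.11 for lower genes, and passed 0.5 for 12 higher genes and 1 lower gene. Most non-overlapping genes thus had classes that lay close together and did not pass limma. Of these genes, 11 higher and 13 lower ones had a mean below the filter level of 4.46 in the class where they were low, so they were kept only through the other class and had to differ. Among the 9 called probe sets this held for those of Myh3, Lst1 and Peg3. With no filter only the 2 Myl4 probe sets passed limma, with adjusted p of 0.0401 and 0.000499.

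**Figure D1:**
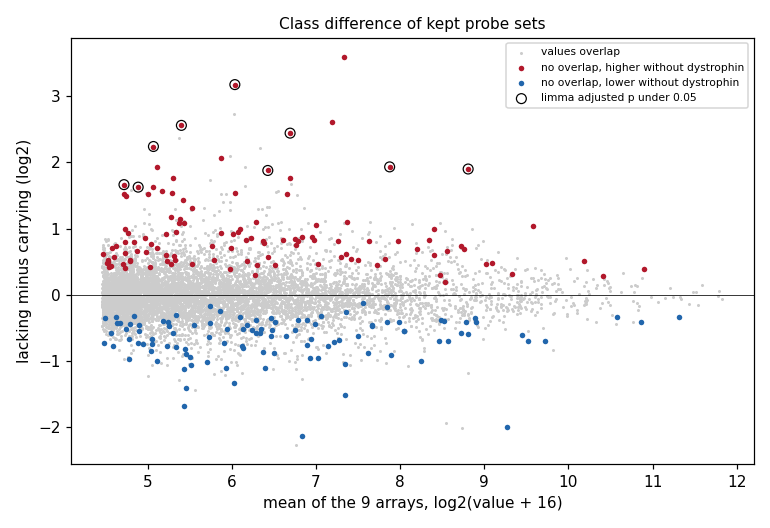
Difference between classes (vertical axis, log2) against mean level of the 9 arrays (horizontal axis, log2(value + 16)) for 7453 probe sets, one point each. Red and blue points are the 114 higher and 106 lower probe sets without overlap, and black rings the 9 called by limma, all higher without dystrophin.

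Leaving out an array can only add probe sets without overlap, since the remaining ones keep their order. Higher probe sets without overlap numbered 248 without wild-type 2, 242 without mdx 1, 256 without mdx x utrn-/- 1 and 303 without mdx 2. Lower ones numbered 161 without wild-type 1, 195 without wild-type 2, 256 without mdx 1, 217 without mdx x utrn-/- 1, 164 without hDMD x mdx x utrn-/- 1 and 338 without mdx 2. Calls in limma moved in both directions: 13 higher probe sets were called without wild-type 1, 11 without wild-type 2, 2 without hDMD 1, hDMD x mdx 2 or mdx x utrn-/- 1, 3 without mdx 1, and 5 without hDMD x mdx 1, hDMD x mdx x utrn-/- 1 or mdx 2. Without wild-type 1, 5 lower probe sets were called, and without mdx 2, 1 was. Of the named genes not called on all arrays, Chrna1, Ankrd1 and Igf2 passed limma without wild-type 1, Pld3 and Tyrobp without wild-type 2, Mt1 without hDMD x mdx x utrn-/- 1, and Tdrp, as the lower one, without mdx 2. Myh3, Lst1, Mt2 and Tmsb10 lost their calls without hDMD 1, hDMD x mdx 2, mdx 1 or mdx x utrn-/- 1, as did S100a4.

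Among genes of the embryonic sarcomere, Myl4, Myh3 and Tnnt2 did not overlap, and Myl4 had the smallest p in limma. Others, such as Myh8 and Tnni1, overlapped. Myl4 (Entrez gene 17896), the light chain of embryonic and atrial myosin, was at 8.66 and 8.26 in mdx and 8.04 in mdx x utrn-/-, against 5.38 to 6.34 in the carrying arrays (median 5.85). Its second probe set was at 8.32, 7.87 and 8.26 in the same order, against 4.71 to 5.36 (median 4.93). All 3 lacking mice thus stood well clear of all 6 carriers, by 1.71 and 2.51 between the nearest arrays. Myl4 rose by 2.44 ± 0.26 (SE) and 3.18 ± 0.22 on these probe sets, with limma adjusted p of 0.00336 and 5.98e-05.

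Myh3 (Entrez 17883), the embryonic myosin heavy chain, was at 6.81 and 5.72 in mdx and 7.16 in mdx x utrn-/-, against 4 to 4.58 in carriers (median 4.34). It rose by 2.24 ± 0.30 with a limma adjusted p of 0.0204, by 1.23 on bright and 2.75 on dim arrays. With no filter Myh3 did not pass (limma adjusted p 0.137). Tnnt2 (Entrez 21956), the troponin T of heart and embryonic muscle, was at 5.88, 5.94 and 6.63 against 4.02 to 5.12 (median 4.52). Its difference of 1.64 ± 0.29 did not pass in limma (adjusted p 0.0820). For both genes the mdx x utrn-/- mouse was the highest and the classes did not overlap.

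Ankrd1 (Entrez 107765), a titin-binding protein induced by stretch, had its highest level in mdx x utrn-/- at 7.36, with 5.69 and 6.13 in mdx and 4 to 5.09 in carriers (median 4.43). Its difference was 1.93 ± 0.36, with a limma adjusted p of 0.104. Rrad (Entrez 56437), a small GTPase that restrains calcium channels, was ordered in the same way, at 6.98 against 5.70 and 6.28 in mdx and 4.33 to 5.01 in carriers (median 4.83), a difference of 1.53 ± 0.28 with the same adjusted p in limma. The double-deficient mouse was a single animal and the youngest of all, so its rank cannot be told apart from age.

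Other genes of the embryonic list were less uniform among carriers. Igf2 (Entrez 16002), an imprinted growth factor, was at 9.75, 8.72 and 10.70 without dystrophin, while carriers ran from 4 to 8.30 (median 5.97). The wide carrier range left a difference of 3.59 ± 0.74 (1.48 on bright and 4.65 on dim arrays) with a limma adjusted p of 0.199. Peg3 (Entrez 18616), a zinc finger protein found in muscle stem cells, was at 5.80, 6.81 and 6.83 against 4 to 5.66 (median 4.61) on its brightest probe set, a difference of 1.77 ± 0.42 with an adjusted p of 0.377 in limma. A second Peg3 probe set, singled out after its values were seen, rose by 1.63 ± 0.26 (limma adjusted p 0.0439), and the third differed by 0.59 ± 0.34 (adjusted p 0.992 in limma). Over the embryonic and regenerating muscle list, 25 of 27 genes on the array were kept, 22 had higher values, and 7 did not overlap (against 1.54% of all genes): Myl4, Myh3, Tnnt2, Ankrd1, Igf2, Peg3 and Mest, at 4.73, 5.04 and 4.75 against 4.10 to 4.56. Of these, Myh3 and Mest were kept only through the lacking class and had to differ. The list median was 0.66, against -0.01 over all 5666 genes, with Myl4 and Myh3 called. With each of the 9 arrays left out in turn, the brighter Myl4 probe set passed limma 9 times, Myh3 and Lst1 5, Mt2 and S100a4 3 and Tmsb10 2.

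**Figure D2:**
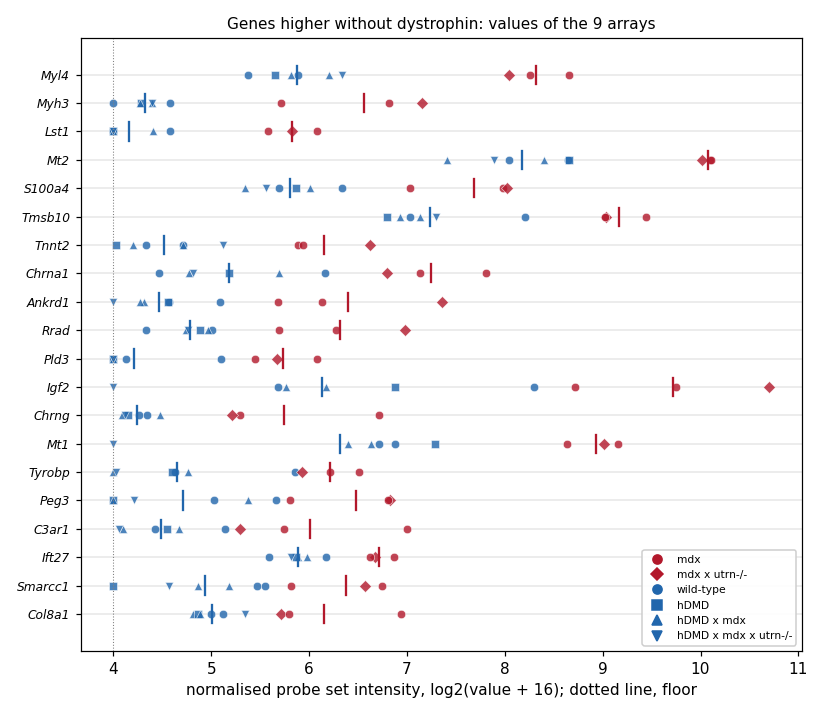
Levels of the 20 genes with the smallest limma p among those higher without overlap (horizontal axis, log2(value + 16)), one row per gene and one symbol per array. Red symbols are the 3 lacking arrays, blue the 6 carrying arrays, vertical strokes are class means and the dotted line is the floor. Every red symbol lies to the right of every blue one.

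Muscle acetylcholine receptors are pentamers, and the fetal form has a gamma subunit where the adult form has epsilon. Both the alpha and the gamma subunit were higher on all 3 lacking arrays. Their promoters are shown because these genes are classic targets of the myogenic factors, which bind E-boxes (CANNTG, the same on both strands). The stretches are the 250 bases before the RefSeq start in GRCm38.p6, 5′ to 3′ in the direction of the gene, with each E-box in capitals. Chrna1 lies at chr2:73580339-73580588 on the minus strand and Chrng at chr1:87205561-87205810 on the plus strand.
Chrna1: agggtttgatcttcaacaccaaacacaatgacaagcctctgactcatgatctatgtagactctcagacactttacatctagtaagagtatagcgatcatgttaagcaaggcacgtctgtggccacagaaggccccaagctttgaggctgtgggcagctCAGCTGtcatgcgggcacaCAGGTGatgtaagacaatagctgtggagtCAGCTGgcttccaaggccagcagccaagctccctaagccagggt
Chrng: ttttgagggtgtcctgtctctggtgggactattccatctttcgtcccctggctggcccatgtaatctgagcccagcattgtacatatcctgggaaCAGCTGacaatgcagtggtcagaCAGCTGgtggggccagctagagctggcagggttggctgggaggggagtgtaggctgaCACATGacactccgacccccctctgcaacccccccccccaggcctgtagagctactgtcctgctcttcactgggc

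Each of these stretches held 3 E-boxes. As many were found in 12.2% and at least 1 in 66.2% of 32851 RefSeq promoter stretches of that length. Chrna1 (Entrez 11435) was at 7.13 and 7.81 in mdx and 6.79 in mdx x utrn-/-, against 4.47 to 6.16 in carriers (median 5.00). Wild-type 1 was the highest carrier. The difference was 2.06 ± 0.38 with a limma adjusted p of 0.104. Chrna1 passed limma with bright or dim as a block (adjusted p 0.00279), on dim arrays alone (2.15 ± 0.28, adjusted p 0.0432) and without wild-type 1 (2.26 ± 0.33, adjusted p 0.0234). In the other 19 of its 22 alternatives Chrna1 did not pass, and with each of 9 arrays left out it passed 1 time. Chrng (Entrez 11449) was at 5.29, 6.71 and 5.21 against 4.08 to 4.48 (median 4.20), so that mdx 2 stood highest and the carriers hardly varied. Its difference of 1.5 ± 0.31 (2.30 on bright and 1.10 on dim arrays) had an adjusted p of 0.199 in limma, and of 0.0397 with bright or dim as a block. In the other 20 of its 21 alternatives Chrng did not pass. Its carrier mean was below the filter level. A second Chrng probe set differed by 0.84 ± 0.36 and overlapped.

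Other subunits were less far apart and their classes overlapped. Chrnb1, the beta subunit, differed by 0.82 ± 0.28, Chrnd by 0.27 ± 0.34 and the adult Chrne by 0.12 ± 0.38. Of 11 receptor and synapse genes kept, 9 had higher values, 2 did not overlap (against 1.54% of all genes), 0 were called by limma (0.106% of all genes), 3 had an unadjusted p under 0.05 and the median was 0.27.

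Metallothioneins, small proteins that bind zinc and copper, lay close together in the 3 mice without dystrophin. Mt2 (Entrez 17750) was at 10.10 and 10.11 in mdx and 10.02 in mdx x utrn-/-, a SD of 0.05, against 7.41 to 8.66 in carriers (median 8.22). It rose by 1.90 ± 0.29 with a limma adjusted p of 0.0369. Mt1 (Entrez 17748) was at 8.63, 9.15 and 9.01 against 4 to 7.29 (median 6.67), and the value at the floor was that of hDMD x mdx x utrn-/- 1. Its difference was 2.62 ± 0.58 and did not pass in limma (adjusted p 0.25), but without that array it was 2.15 ± 0.25 with an adjusted p of 0.0126 in limma. Over its 22 alternatives the adjusted p of Mt1 ran from 0.0126 to 1.

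The promoters of both genes are shown because metal response elements drive them. Capitals mark the core TGCNCNC on either strand, again in the 250 bases before the RefSeq start of GRCm38.p6, with Mt1 at chr8:94178839-94179088 and Mt2 at chr8:94172368-94172617, both on the plus strand.
Mt1: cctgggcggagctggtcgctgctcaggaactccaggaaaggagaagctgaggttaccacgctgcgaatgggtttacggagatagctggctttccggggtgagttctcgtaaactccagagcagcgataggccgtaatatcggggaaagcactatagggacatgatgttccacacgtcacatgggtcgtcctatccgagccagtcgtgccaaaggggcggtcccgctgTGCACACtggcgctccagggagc
Mt2: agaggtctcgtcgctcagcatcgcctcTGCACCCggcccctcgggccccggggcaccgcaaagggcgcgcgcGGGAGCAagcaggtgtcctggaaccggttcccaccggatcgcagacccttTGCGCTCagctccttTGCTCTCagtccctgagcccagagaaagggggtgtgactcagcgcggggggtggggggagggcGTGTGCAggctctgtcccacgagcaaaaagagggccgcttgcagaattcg

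The Mt2 stretch held 5 cores and the Mt1 stretch 1. As many as 5 were found in 0.344% and at least 1 in 44.4% of the 32851 stretches. Of 24 metallothionein and stress genes kept, 18 had higher values, only the 2 metallothioneins did not overlap (1.54% of all genes), Mt2 was called (0.106% of all genes) and the median was 0.26.

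Genes of actin turnover and cell motility were higher without dystrophin. Tmsb10 (Entrez 19240), a thymosin that holds actin monomers, was at 9.44, 9.02 and 9.03 against 6.80 to 8.21 (median 7.08), and rose by 1.93 ± 0.30 with a limma adjusted p of 0.0396. S100a4 (Entrez 20198), which binds calcium and myosin in migrating cells, was at 7.98 and 7.03 in mdx and 8.03 in mdx x utrn-/-, against 5.35 to 6.34 (median 5.78), and rose by 1.88 ± 0.29 with the same adjusted p in limma. In both genes wild-type 2 was the highest carrier. S100a6 (Entrez 20200), of the same family, differed by 1.0 ± 0.26, from 7.60 to 8.60 in carriers to 8.73 to 9.39 without dystrophin, with a limma adjusted p of 0.380. Of 16 such genes kept, 13 had higher values, these 3 did not overlap (1.54% of all genes), 2 were called (0.106% of all genes) and the median was 0.72.

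Macrophage genes were higher as a group, yet few separated the classes. All 19 kept had higher values, by a median of 0.77 (1.09 on bright and 0.75 on dim arrays), but only 2 did not overlap (1.54% of all genes). Lst1 (Entrez 16988), a leukocyte transcript, was at 6.08, 5.58 and 5.82 against 4 to 4.57, with the median carrier at the floor, and rose by 1.67 ± 0.23 (limma adjusted p 0.0204). It had 4 of 6 carriers at the floor, so this size and its error rest on floored values, and with no filter Lst1 did not pass (limma adjusted p 0.0531). That difference was 1.09 on bright and 1.95 on dim arrays. Tyrobp (Entrez 22177), an adaptor of myeloid receptors, was at 6.51, 6.21 and 5.93 against 4 to 5.86 (median 4.62), a difference of 1.57 ± 0.37 with an adjusted p of 0.373 in limma. Its highest carrier was wild-type 2, 0.07 below the nearest lacking array.

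Wild-type 2 set the overlap for most of this list. Its score, the median deviation of the members from their means, was 0.78, against -0.57 to -0.31 in the other 5 carriers and 0.38 to 1.07 without dystrophin. Lgals3, the galectin of activated macrophages, was at 7.53 in wild-type 2, 4.23 to 5.13 in the other carriers, and 8.54, 7.29 and 7.71 without dystrophin. Without wild-type 2, 12 of the 19 genes did not overlap (3.51% of all genes), and without any other single carrier 2 did not. Wild-type 2 was chosen here for its high values in this same list, and leaving out an array can only add such genes. The 12 genes thus show which array made them overlap, and were not a test of the class difference. The part of macrophages in the actin, matrix and lysosome values was not tested. Summed normalised intensities of the list ran from 1080 to 1954 in the lacking and 279 to 1325 in the carrying arrays. Another 5 genes of the list on the array, among them Adgre1 and Itgam, were too dim to be kept. In whole muscle, more cells of a type and more RNA per cell cannot be told apart.

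Other immune lists followed 1 array each or did not separate. The neutrophil and mast cell list had a score of 2.16 in mdx x utrn-/-, where S100a8 and S100a9 (calprotectin) were at 9.08 and 9.52, against -0.68 and -0.31 in the mdx mice and -0.74 to 0.33 in carriers. No gene of the 11 kept was without overlap. All 7 lymphocyte genes had lower values (median -0.33, with 0.09 on bright and -0.37 on dim arrays), and none was without overlap. Their scores were -0.54 to -0.24 in the lacking and -0.47 to 0.84 in the carrying arrays. Antigen presentation genes had higher values in all 13 cases and a median of 0.51, but wild-type 2 had the highest score of all 9 arrays at 1.20. C3ar1 (Entrez 12267), the receptor of the complement fragment C3a, was the 1 complement gene of 11 without overlap (1.54% of all genes). It was at 7.00, 5.75 and 5.29 against 4.06 to 5.14, a difference of 1.52 ± 0.37 (limma adjusted p 0.377).

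Values were higher for 32 of 35 matrix genes (median 0.44), but 2 did not overlap (1.54% of all genes). Eln (Entrez 13717), elastin, was at 7.43, 7.71 and 7.48 against 6.33 to 7.16 (median 6.59), a difference of 0.87 ± 0.25 with a limma adjusted p of 0.464. A second Eln probe set differed by 0.15 ± 0.37. Col8a1 (Entrez 12837), a short-chain collagen of vessel walls, was at 6.94, 5.80 and 5.72 against 4.81 to 5.34, a difference of 1.15 ± 0.28 with an adjusted p of 0.380 in limma. When carriage of the human gene was added as a covariate, the median over the matrix list became -0.06. Both wild-type arrays had matrix scores of 0.20 and 0.48, within the range of 0.02 to 0.53 without dystrophin, and the 4 carriers of the human gene lay from -0.49 to -0.28.

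Of 9 kept enzymes that remodel matrix and their inhibitors, 6 had higher and 3 lower values, and 2 did not overlap (1.54% of all genes). Timp1 (Entrez 21857), an inhibitor of matrix proteases, was at 8.65, 7.53 and 7.43 against 5.29 to 7.11 (median 5.99), a difference of 1.76 ± 0.46 with a limma adjusted p of 0.380. Mmp14 (Entrez 17387), a membrane-bound collagenase, was at 7.42, 7.24 and 7.12 against 5.86 to 7.03, a difference of 0.75 ± 0.28 (limma adjusted p 0.8). Of the lysosome genes, 19 of 21 had higher values (median 0.43), and Cd63, a tetraspanin of lysosomes and exosomes, alone did not overlap (1.54% of all genes), at 8.78 to 9.09 against 7.77 to 8.54.

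Among genes lower without dystrophin, 0 were called by limma, with 173 probe sets at an unadjusted p under 0.05, and the furthest apart were a nuclear receptor, a growth inhibitor and a glycogen kinase subunit. Rxrg (Entrez 20183), the retinoid X receptor of muscle, was at the floor of 4 in mdx 1 and mdx x utrn-/- 1 and at 4.92 in mdx 2, against 5.40 to 6.73 in carriers (median 5.82). The difference was -1.68 ± 0.33 (-0.89 on bright and -2.07 on dim arrays), with a limma adjusted p of 0.154. It is bounded by the floor in 2 of 3 lacking arrays, and Rxrg was kept only through the carriers.

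Mstn (Entrez 17700), myostatin, restrains muscle growth through activin receptors, and follistatin binds and blocks it. Mstn was at 6.67 and 6.19 in mdx and 6.12 in mdx x utrn-/-, against 7.16 to 8.66 in carriers (median 7.72). Wild-type 1 was the lowest carrier and hDMD 1 the highest. The difference was -1.52 ± 0.32 with a limma adjusted p of 0.199, and it ran from -1.69 to -1.36 with each array left out. Fst (Entrez 14313), follistatin, did not overlap in the other direction, at 4.72, 4.64 and 5.28 against 4 to 4.55, a difference of 0.53 ± 0.24 (limma adjusted p 0.884), 0.12 on bright and 0.73 on dim arrays. Fst was kept only through the lacking class, so it had to differ. Of 20 genes of this pathway kept, 7 had higher and 13 lower values. Mstn and Fst were the 2 without overlap (1.54% of all genes higher, 1.61% lower). Of the 20, 0 were called by limma, 3 had an unadjusted p under 0.05 and the median was -0.09.

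The Mstn promoter is shown for comparison with the receptor genes, since the same myogenic factors are known to act on it. It lies at chr1:53061390-53061639 of GRCm38.p6 on the plus strand, with E-boxes in capitals.
Mstn: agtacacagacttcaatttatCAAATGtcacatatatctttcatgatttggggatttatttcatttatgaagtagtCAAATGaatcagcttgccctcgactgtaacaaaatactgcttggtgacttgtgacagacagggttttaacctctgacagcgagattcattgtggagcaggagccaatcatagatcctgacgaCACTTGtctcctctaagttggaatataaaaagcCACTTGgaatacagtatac
It held 4 E-boxes, as many as were found in 3.84% of the 32851 stretches. At least 1 E-box was found in 66.2% of the stretches, so finding them on both sides of the class difference was not a test of the motif.

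**Figure D3:**
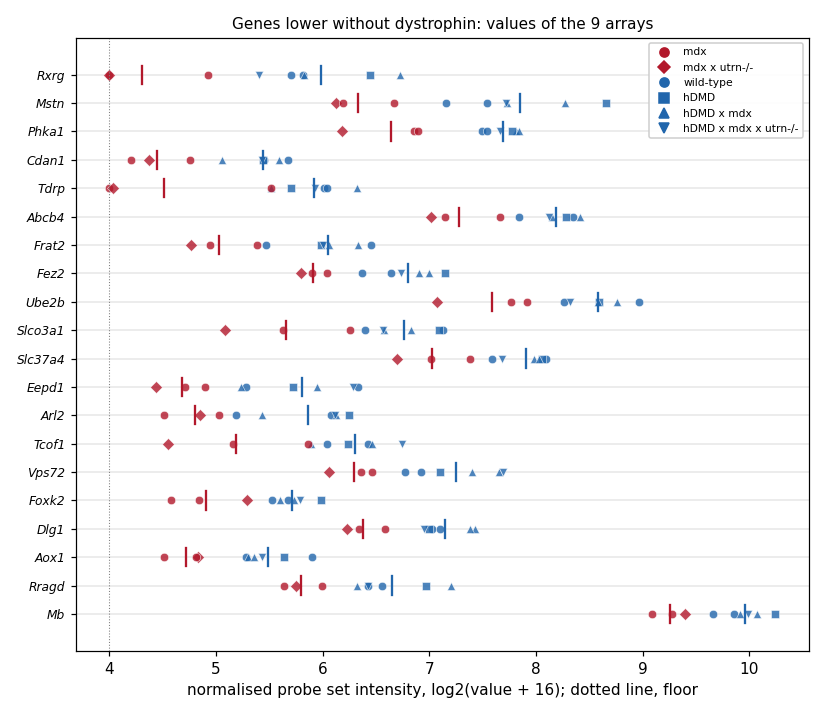
Levels of the 20 genes with the smallest limma p among those lower without overlap (horizontal axis, log2(value + 16)), one row per gene and one symbol per array. Red symbols are the 3 lacking arrays and blue the 6 carrying arrays, with class means as vertical strokes and the floor dotted. Every red symbol lies to the left of every blue one, by 0.48 for Rxrg and 0.001 for Tdrp.

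Genes of glucose uptake and glycogen breakdown had lower values. Phka1 (Entrez 18679), a regulatory subunit of the kinase that activates glycogen phosphorylase, was at 6.85, 6.89 and 6.19 against 7.49 to 7.84 (median 7.72). Carriers spread by a SD of only 0.15, and the nearest arrays were 0.60 apart, the widest distance among lower genes. The difference was -1.04 ± 0.22 with a limma adjusted p of 0.226. Slc2a4 (Entrez 20528), the insulin-responsive glucose transporter, was at 8.27, 8.38 and 8.58 against 8.66 to 9.36, a difference of -0.60 ± 0.21 (limma adjusted p 0.761). Pfkm (Entrez 18642), the muscle phosphofructokinase, was at 10.70, 10.65 and 10.42 against 10.83 to 11.23, a difference of -0.41 ± 0.19 (limma adjusted p 0.905).

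These 3 were the genes without overlap among 19 of glycolysis and glycogen (against 1.61% of all genes), of which 16 had lower values. The list median was -0.23, and 0 were called by limma, with 3 at an unadjusted p under 0.05. Its scores were -0.32 to -0.01 in the lacking and -0.09 to 0.28 in the carrying arrays, with wild-type 2 the lowest carrier. Slc37a4 (Entrez 14385), which carries glucose 6-phosphate into the endoplasmic reticulum, was at 7.02, 7.38 and 6.69 against 7.58 to 8.10, a difference of -0.88 ± 0.23 with an adjusted p of 0.380 in limma.

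Oxygen storage, mitochondrial and fast fibre genes had smaller differences. Mb (Entrez 17189), myoglobin, was at 9.27, 9.09 and 9.40 against 9.66 to 10.24 (median 9.95), a difference of -0.70 ± 0.21 with a limma adjusted p of 0.546. Idh3a (Entrez 67834), a citric acid cycle enzyme, was at 8.59, 8.58 and 7.83 against 8.68 to 9.14, a difference of -0.58 ± 0.23, with -0.15 on bright and -0.80 on dim arrays. Mb and Idh3a stood among lists whose medians were near that of all genes: 11 slow fibre genes at -0.03 and 25 oxidative phosphorylation genes at -0.07. Fatty acid oxidation genes had lower values in 19 of 20 cases (median -0.22), none without overlap.

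Actn3 (Entrez 11474), the Z-disc actinin of fast fibres, was at 11.17, 11.17 and 10.92 against 11.38 to 11.51, a difference of -0.33 ± 0.19 (limma adjusted p 0.985). A second Actn3 probe set differed by -0.13 ± 0.27 and overlapped. Myoz1 (Entrez 59011), a calcineurin-binding Z-disc protein of fast fibres, was at 10.37, 10.15 and 10.55 against 10.57 to 10.92, a difference of -0.33 ± 0.20 (limma adjusted p 0.999). Actn3 and Myoz1 were the 2 of 14 fast fibre genes without overlap (1.61% of all genes), and the list median was -0.10. The contractile genes Acta1 and Myh4 differed by 0.05 ± 0.18 and -0.15 ± 0.19. Capn3 (Entrez 12335), the muscle calpain lost in a limb-girdle dystrophy, was at 7.61, 7.89 and 7.53 against 7.91 to 8.47, a difference of -0.55 ± 0.21 (limma adjusted p 0.8). Its other 2 probe sets differed by -0.48 ± 0.43 and -0.24 ± 0.28 and overlapped. The 12 muscle fibre markers had a median of -0.06, and their summed intensity was 24660 to 27440 in the lacking and 26340 to 28230 in the carrying arrays.

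The other named lower genes had varied functions, and 0 passed limma. Ube2b (Entrez 22210), a ubiquitin-conjugating enzyme, was at 7.77, 7.92 and 7.07 against 8.26 to 8.96, a difference of -1.0 ± 0.25. Abcb4 (Entrez 18670), a phospholipid transporter, was at 7.15, 7.67 and 7.01 against 7.84 to 8.41, a difference of -0.92 ± 0.23. Each had an adjusted p of 0.380 in limma, and mdx 2 was the nearest lacking array to the carriers in both.

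Dlg1 (Entrez 13383), a scaffold protein of membranes and synapses, was at 6.34, 6.58 and 6.23 against 6.95 to 7.43, a difference of -0.77 ± 0.21 with an adjusted p of 0.419 in limma. Rragd (Entrez 52187), a GTPase that signals amino acids to mTORC1, was at 5.64, 5.99 and 5.75 against 6.32 to 7.21, a difference of -0.86 ± 0.25 with a limma adjusted p of 0.516. Frat2, an inhibitor of the kinase GSK3, differed by -1.02 ± 0.26, and the forkhead factor Foxk2 by -0.81 ± 0.22. A second Frat2 probe set differed by -0.44 ± 0.33 and overlapped. Myh11, the smooth muscle myosin, was the 1 vessel wall marker of 12 without overlap (1.61% of all genes), at 5.04, 5.27 and 5.46 against 5.48 to 6.03. The remaining named lower genes were Cdan1, Tdrp, Fez2, Slco3a1, Eepd1, Arl2, Tcof1, Vps72 and Aox1, with differences of -1.41 to -0.77. Cdan1 was kept only through the carriers, so it had to differ.

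The remaining named higher genes were of mixed function. Pld3 (Entrez 18807), a lysosomal nuclease, was at the floor in 4 of 6 carriers and at 5.45, 6.08 and 5.68 without dystrophin. Pld3 was kept only through the lacking class, so it had to differ. Ift27, a GTPase of cilia, differed by 0.83 ± 0.20 and Smarcc1, of a chromatin remodelling complex, by 1.44 ± 0.36, each with an adjusted p of 0.380 in limma. A second Ift27 probe set differed by 0.85 ± 0.36 and overlapped. Cav3 (Entrez 12391), the caveolin of muscle membranes that binds dystroglycan, was at 8.46, 8.05 and 8.04 against 7.26 to 7.98. It was the 1 gene of 14 in the dystrophin complex list without overlap (1.54% of all genes). Its difference was 0.54 ± 0.24 (limma adjusted p 0.875). The other Cav3 probe set differed by 0.62 ± 0.36 and overlapped. The sarcoglycan genes Sgca, Sgcb and Sgcd differed by 0.01 ± 0.30, -0.03 ± 0.26 and -0.04 ± 0.22. Ckb (Entrez 12709), the brain-type creatine kinase, was at 7.13 to 7.43 against 5.96 to 7.03, and Sat1 (Entrez 20229), which breaks down polyamines, at 6.94 to 7.33 against 4 to 6.68.

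**Figure D4:**
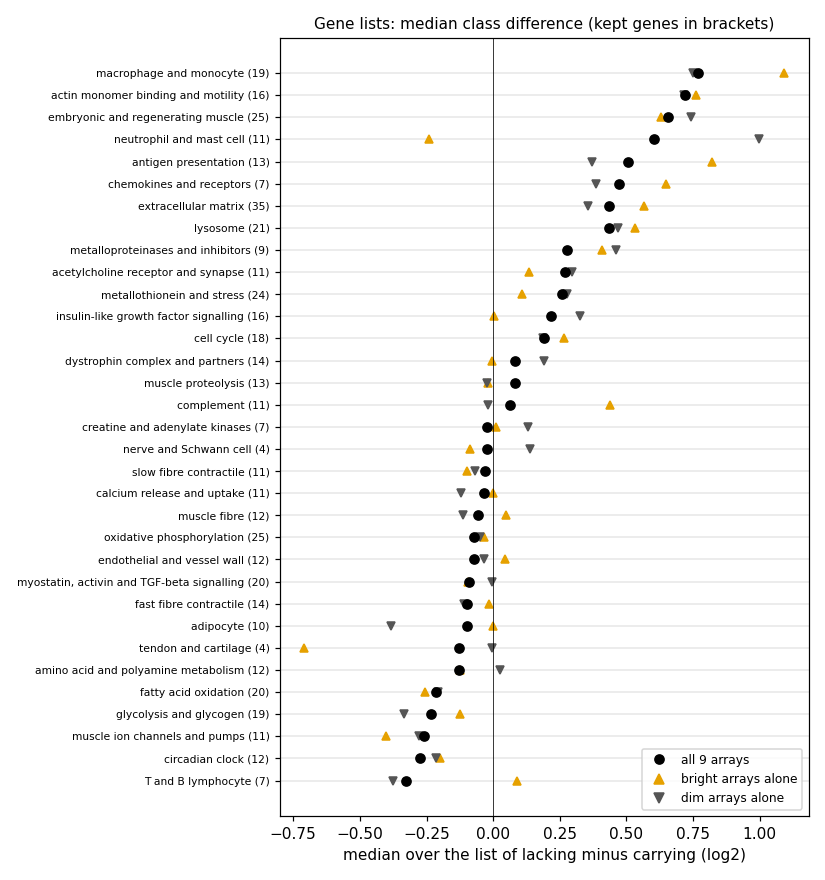
Median difference between classes (horizontal axis, log2) for 33 gene lists with the number of kept genes in brackets. Black circles use all 9 arrays, orange triangles the 3 bright and grey triangles the 6 dim arrays. Macrophage, actin and embryonic muscle lists lie at 0.66 to 0.77 and are above 0.6 in both sets, whereas the neutrophil list is at -0.24 on the bright and 0.997 on the dim arrays.

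**Figure D5:**
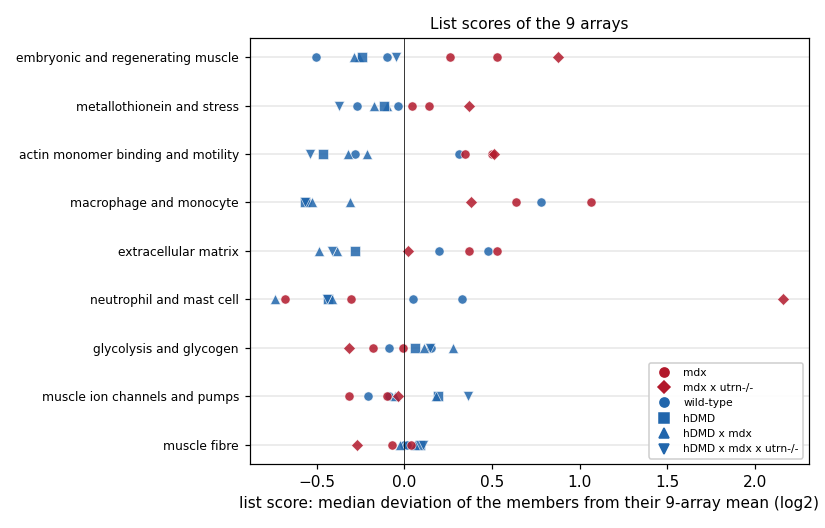
Score of each array (horizontal axis, log2 deviation from the mean of the 9 arrays) for 9 lists, with red symbols for the lacking and blue for the carrying arrays. The embryonic muscle list separates the classes, at 0.26 to 0.88 against -0.51 to -0.05. So do the metallothionein and stress list, at 0.04 to 0.37 against -0.37 to -0.04, and the actin list, at 0.35 to 0.51 against -0.54 to 0.31. In the macrophage list wild-type 2 lies at 0.78 among the lacking arrays.

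Lists of muscle membrane and clock genes had low values with no gene standing clear. Values were lower for all 11 ion channel and pump genes (median -0.26), and scores overlapped, at -0.32 to -0.04 and -0.21 to 0.36. Of 12 circadian clock genes, 11 had lower values (median -0.28), and the time of dissection is not given in the sources used here. Of 13 muscle proteolysis genes kept, 7 had higher and 6 lower values, with a median of 0.08. Mt1 was higher without overlap (1.54% of all genes), and Ube2b and Capn3 were lower without overlap (1.61% of all genes). Cell cycle genes had a median of 0.19 with none of 18 without overlap (1.54% of all genes higher, 1.61% lower).

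The lacking arrays differed in how often each was the most extreme or the nearest to the carriers. Among the 91 lower genes without overlap, the lowest array was mdx x utrn-/- 1 for 49, mdx 1 for 27 and mdx 2 for 15. Among the 87 higher genes the highest array was mdx 1 for 35, and mdx x utrn-/- 1 and mdx 2 for 26 each. The lacking array nearest the carriers was mdx x utrn-/- 1 for 36 of the higher and 22 of the lower genes. It was mdx 2 for 32 and 41, and mdx 1 for 19 and 28. These genes were chosen for non-overlap on the same values, so such counts do not measure distance from the carriers. On the carrying side, wild-type 1 was nearest for 30 of the higher and 15 of the lower genes, and wild-type 2 for 27 and 34. The array hDMD x mdx 1 was nearest for 10 and 19, and hDMD x mdx 2 for 7 and 7. For 8 and 9 genes hDMD x mdx x utrn-/- 1 was nearest, and for 5 and 7 hDMD 1.

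Other probe sets of these genes were not used to choose them. For 15 of the higher genes 18 further probe sets were kept, of which 12 had a difference of the same sign and 4 did not overlap either: those of Myl4, Peg3 and, in 2 cases, S100a13, a calcium-binding protein. For 14 of the lower genes 15 were kept, 13 with the same sign and 1 without overlap, that of Cbfb, a transcription factor subunit. Their median differences were 0.22 and -0.13, against 0.81 and -0.48 for the chosen probe sets of the same genes.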

How the data were processed

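Total RNA of gastrocnemius from single mice was hybridised to U74Av2 arrays, per the labels. The authors deposited 1 intensity per probe set and array, on a linear scale with values below 0. No source used here gives the expression measure, software or scaling. Intensities were quantile normalised over 9 arrays (limma 3.58.1, R 4.3.3), values below 0 set to 0, and log2(value + 16) taken. From 12422 probe sets, after 66 controls were left out, those with a mean above the 40th percentile were kept (7453). Of these 6698 had 1 gene symbol (5666 genes, each represented by its brightest probe set). limma compared 2 class means with 7 residual degrees of freedom and Benjamini-Hochberg adjustment over 7453, and was tested on simulated data. Named genes were the 20 with the smallest limma p among those without overlap in each direction, and up to 3 such members per list. The members and lists were chosen with earlier results of these data known, and the promoter motifs after values were seen. Alternatives changed the scaling, filter, pseudocount, covariates and arrays. No depth exists for arrays, and their number limits the precision.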

Additional observations from a re-analysis of the deposited data

Results flagged for a closer look

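Among the 6 carrying arrays, 89 sets of values (named genes and list scores) were examined for a sample far from the others by Dixon's criterion. Chance gives about 1 in 20 for independent sets, but these share arrays and members, so that rate is no yardstick here. A far sample was found in 7 sets (7.87%). Wild-type 2 was the far sample in 6 of them. Its level was 8.208 for Tmsb10, against 6.80 to 7.29 in the other carriers, and 5.102 for Pld3, against 4 to 4.13. Its scores were 0.781 for macrophage genes, 0.212 for metalloproteinases and inhibitors, 0.647 for lysosome genes and 1.200 for antigen presentation, each above the other 5 carriers. The remaining one was Mt1, at the floor of 4 in hDMD x mdx x utrn-/- 1, against 6.40 to 7.29 in the others.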

How the results depend on the processing

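With limma, 9 probe sets were called higher in the fit reported, but 0 on deposited values without normalisation, 1 with a pseudocount of 1, and 2 without the filter, with the human gene as a covariate, or without the utrn-/- genotypes. With single arrays left out this count ran from 2 to 13. Called lower were 0 in the fit reported, 1 on the dim arrays alone, and 0 to 5 with single arrays left out. Probe sets without overlap numbered 5 higher and 5 lower on deposited values. Within bright and dim arrays as blocks they numbered 253 and 293, on dim arrays alone 527 and 601, and without the utrn-/- genotypes 320 and 319. With single arrays left out they ran from 132 to 303 and from 128 to 338; fewer arrays can only add such probe sets. All 56 named genes kept their sign in every alternative that gave them a value (20 to 22 each). They were chosen for values without overlap, so most alternatives, such as leaving out an array, could hardly reverse them. Of 33 list medians, not chosen in this way, 17 kept their sign in all 21 alternatives. No paired analysis was possible because each array is a separate mouse and the labels pair no mice. The floor held 3.12% of kept values, and dim genes are limited by it. The unknown deposited scaling, 1 or 2 mice per genotype and unequal ages limit the comparison.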

Other observations

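Some genes of the endoplasmic reticulum and of autophagy, picked after their values were seen, also did not overlap, and none passed limma. Manf, a secreted protein of the stressed endoplasmic reticulum, was at 6.86 and 6.59 in mdx and 6.83 in mdx x utrn-/-, against 5.04 to 6.27 in carriers. Erp29, a chaperone of secreted proteins, was at 6.79, 7.04 and 6.89 against 5.44 to 6.47, and a second Erp29 probe set differed by -0.04 ± 0.38. Autophagy genes went both ways. Ulk1, the kinase that starts autophagy, was at 5.87, 5.85 and 6.12 against 6.17 to 6.81, with a second probe set at -0.10 ± 0.61. Bnip3, a mitophagy receptor, was at 6.24, 6.33 and 6.93 against 7.04 to 7.59. Map1lc3a, which coats autophagosomes, was higher at 8.62, 8.42 and 8.93 against 7.41 to 8.29.

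Immunoglobulin mu (Ighm), the heavy chain of B cell receptors, was lower in the mice without dystrophin on 1 of its 4 probe sets, singled out after its values were seen. That probe set was at 5.74 and 5.27 in mdx and 5.23 in mdx x utrn-/-, against 5.93 to 8.31 in carriers (median 7.95), and wild-type 1 was the lowest carrier. Its difference was -2.14 ± 0.47 with a limma adjusted p of 0.25. The other 3 probe sets differed by -1.08, -0.03 and 0.58 and overlapped. Without wild-type 1, limma called Ighm lower on the singled-out probe set (-2.46 ± 0.32, adjusted p 0.0147) and on the one at -1.08 (-1.44 ± 0.25, adjusted p 0.0479).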
